A study of Mus musculus with 9 samples.

Results

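The comparison is between the livers of mice that lack Cth and were given 1% betaine in the drinking water and the livers of wild type mice on plain drinking water. It takes in 6 of the 9 RNA libraries of the series, 3 of each group, chosen by genotype and treatment as the labels give them. The other 3 libraries are Cth knockout livers on plain drinking water; they share the knockout with the betaine-supplemented group and are used here for the estimate of spread and as values set beside the comparison. The question was which liver transcripts still differed from wild type when the knockout received betaine. The labels give no strain, age, sex, duration of supplementation or deleted exon, and no wild type group with betaine was among the samples, so the knockout and the supplement cannot be told apart in this comparison.

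Cth encodes cystathionine gamma-lyase, the enzyme that releases cysteine from cystathionine at the end of the transsulfuration pathway and that also forms hydrogen sulfide. Homocysteine either enters that pathway through cystathionine beta-synthase or is methylated back to methionine, in liver mainly by betaine-homocysteine methyltransferase, which takes the methyl group from betaine. Methionine is then activated to S-adenosylmethionine, the methyl donor for creatine, phosphatidylcholine and histone lysine methylation.

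The deposited table gives 1 FPKM value (fragments per kilobase of exon, scaled for library depth) for each of 54532 genes and each library. Reads recovered from these values came to 15426694 to 17471497 in the 6 libraries, so that 3 reads in a gene of 1 kb stand for 0.162 to 0.196 FPKM. Wild type replicate 3 stood apart: Xist, the RNA that coats an inactive X chromosome, stood at 26.6 FPKM in it and no higher than 0.0124 FPKM in the other 8 libraries, while 4 genes of the Y chromosome (Uty, Ddx3y, Kdm5d, Eif2s3y) had 0 reads in it and 1512 to 2393 elsewhere. Fold changes of the betaine-supplemented knockout are therefore given also without that library. Genes entered the test where their average across the 6 libraries reached 0.5 FPKM, 11763 in all, and values are log2 fold changes of FPKM + 0.5 with their standard error, from 1 limma fit over all 9 libraries. Adjusted p-values are Benjamini-Hochberg values over all tested genes, and a gene is said to have risen or fallen where its adjusted p was below 0.05. Nothing in the labels says whether replicates came from separate animals, so the p-values speak of the spread among these samples only.

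Cth (ENSMUSG00000028179, chromosome 3, bases 157894248 to 157925077 of GRCm38, protein coding) measured 285, 257 and 219 FPKM in the 3 wild type livers and 0.319, 0.309 and 0.781 FPKM in the 3 betaine-supplemented knockout livers. The groups were far apart, and the knockout without betaine was as low, at 0.583, 0.278 and 0.77 FPKM. The log2 fold change was -8.06 ± 0.23 (adjusted p = 2.53e-07), and -8.16 without wild type replicate 3. A total of 66 reads remained over the 3 betaine-supplemented libraries against 34550 in wild type. Gm43314, an unreviewed transcript annotated inside the Cth locus (chromosome 3, bases 157894961 to 157897191), was the only one of the 13 other tested genes within 5 Mb of Cth to pass the threshold, with -1.82 ± 0.40 and -1.44 without the library.

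Of the 11763 genes, 1407 passed (12%), 709 higher (6.03%) and 698 lower (5.93%) in the betaine-supplemented knockout. With wild type replicate 3 left out the number was 1454 (12.4%), 678 higher (5.76%) and 776 lower (6.6%). The 2 fits had 1060 of these genes in common, 531 higher and 529 lower; 347 passed only with the library and 394 only without it. Of the 1407, 324 passed in each of the 9 fits that leave out 1 library, 175 higher and 149 lower. A change of more than 1 on the log2 scale was found for 335 of the 1407, 200 higher and 135 lower. Counts given for gene lists below are to be read against the shares of all tested genes, 6.03% higher and 5.93% lower. The direction of the calls depended on the scaling: with each library divided by its own read total 1530 genes passed and 69.5% of them were higher, against 50.4% as deposited, and the median of all tested genes moved from 0.00 to 0.06. Fitted to the 6 libraries of the comparison alone, 360 genes passed, 210 higher and 150 lower. The knockout without betaine differed from the same wild type libraries in 2992 genes (25.4%); since the wild type libraries are shared, values of that comparison are only set beside those of the betaine group. Between the 2 knockout groups 0 of 11763 genes passed limma (2624 at an unadjusted p under 0.05, lowest adjusted p = 0.0626), so no gene below is shown to differ between them.

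**Figure D1:**
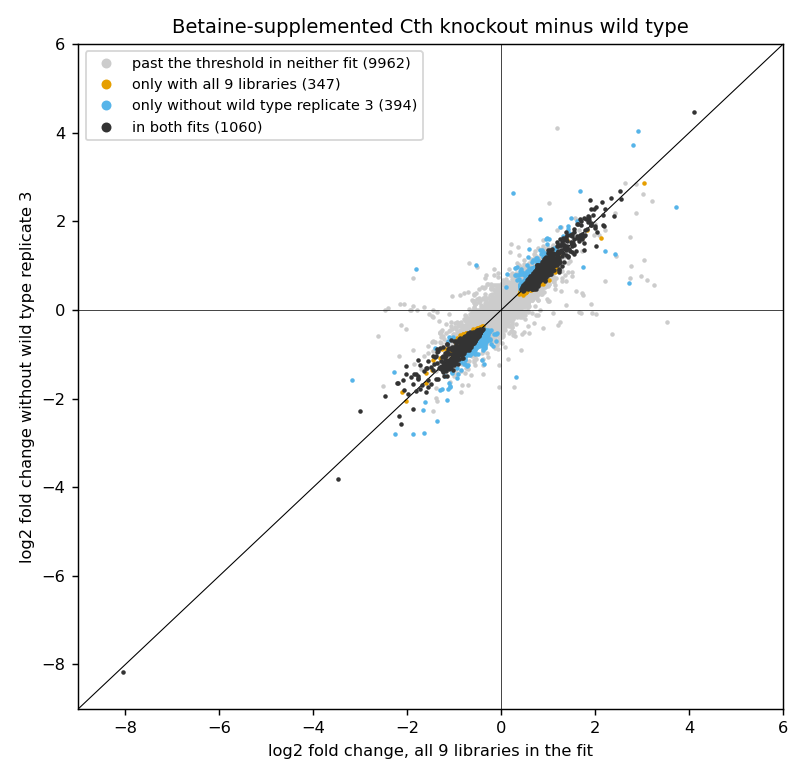
Each point is 1 of the 11763 tested genes, with the log2 fold change of the betaine-supplemented knockout against wild type over all 9 libraries on the horizontal axis and without wild type replicate 3 on the vertical axis. The 1060 genes past the threshold in both fits (black) lie near the diagonal, Cth lies at -8.06 and -8.16, and the 347 and 394 genes past it in 1 fit only are in orange and light blue.

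Among the enzymes of homocysteine remethylation and betaine breakdown Bhmt, Bhmt2 and Dmgdh were higher. Bhmt (ENSMUSG00000074768, chromosome 13, bases 93616675 to 93637961 of GRCm38), betaine-homocysteine methyltransferase, measured 520.3, 385 and 454 FPKM in wild type and 1659.9, 1358 and 2116 FPKM in the betaine-supplemented knockout. Every supplemented liver lay above every wild type liver, and the knockout on plain water lay between them at 1261, 1091 and 1065 FPKM. The rise was 1.90 ± 0.19 (adjusted p = 0.00322), 1.91 without wild type replicate 3. Bhmt2, its paralog that methylates homocysteine from S-methylmethionine, rose from 78.1, 60.9 and 81.3 to 93, 113 and 126 FPKM, by 0.59 ± 0.17 (0.67 without the library). The adjusted p of Bhmt2 was 0.0494, and 0.13 with the exon length trend described further on removed. Dmgdh, which oxidizes the dimethylglycine left after betaine has given its methyl group, measured 175, 143 and 127 and 218, 228 and 254 FPKM and rose by 0.66 ± 0.16, 0.56 without the library; its adjusted p went from 0.0317 to 0.0518 without wild type replicate 3. For Bhmt2 and Dmgdh the knockout livers without betaine gave 81.8, 66.8 and 74 FPKM and 169, 159 and 132 FPKM, inside or close to the wild type range. These 3 were the only members of the 10 in the remethylation list to rise, and 0 fell; with wild type replicate 3 left out 2 rose and 1 fell. The methionine synthase genes Mtr and Mtrr gave -0.19 ± 0.18 and 0.09 ± 0.15 (-0.09 and 0.13 without it) and did not pass.

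In transsulfuration and sulfide handling 3 of 9 listed members rose and 2 fell, Cth being 1 of the 2, with the same counts without wild type replicate 3. Cbs, cystathionine beta-synthase, measured 203, 185 and 186 FPKM in wild type and 132, 108 and 129.9 FPKM in the betaine-supplemented knockout. The ranges did not overlap, the log2 fold change was -0.64 ± 0.13 (adjusted p = 0.0177), and it was -0.66 without the library. The 3 that rose all act on sulfur further along. Mpst, the mercaptopyruvate sulfurtransferase that forms hydrogen sulfide by a route that does not need Cth, went from 47.8, 39.1 and 34 to 95.4, 71.5 and 101 FPKM (1.14 ± 0.17). Tst, the mitochondrial sulfurtransferase rhodanese, rose by 0.63 ± 0.12, and Ethe1, the persulfide dioxygenase of mitochondrial sulfide oxidation, by 1.28 ± 0.27; without wild type replicate 3 the rises of the 3 genes were 1.02, 0.62 and 1.0. Sqor and Suox, which oxidize sulfide and sulfite, gave -0.10 ± 0.13 and 0.27 ± 0.13 (-0.03 and 0.21 without it) and did not pass. The knockout without betaine had values near those of the supplemented group for Mpst (69, 75.2 and 72.4 FPKM), Tst (99.5, 97.7 and 103 FPKM) and Ethe1 (92, 95.9 and 91.2 FPKM), and lay between the groups for Cbs (148, 159.9 and 159 FPKM).

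Csad, cysteine sulfinic acid decarboxylase, which commits oxidized cysteine to taurine, had the largest fall after Cth among the genes named by rule. Csad (ENSMUSG00000023044, chromosome 15, bases 102176999 to 102204724 of GRCm38) measured 198, 173 and 92.4 FPKM in wild type and 6.12, 12.8 and 25.4 FPKM in the supplemented knockout. The lowest wild type value was replicate 3 and still exceeded the highest supplemented one. The fall was -3.48 ± 0.67 (adjusted p = 0.0191) and -3.82 without that library. The knockout on plain water spread widely, with 43.5, 13.8 and 72.1 FPKM, and gave -2.04 against wild type (adjusted p = 0.0578). Csad was the only one of 7 tested members of its list to pass. Cdo1, which makes the cysteine sulfinic acid that Csad uses, gave -0.43 ± 0.24 and the taurine transporter Slc6a6 -0.36 ± 0.14 (-0.27 and -0.44 without the library); neither passed.

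**Figure D2:**
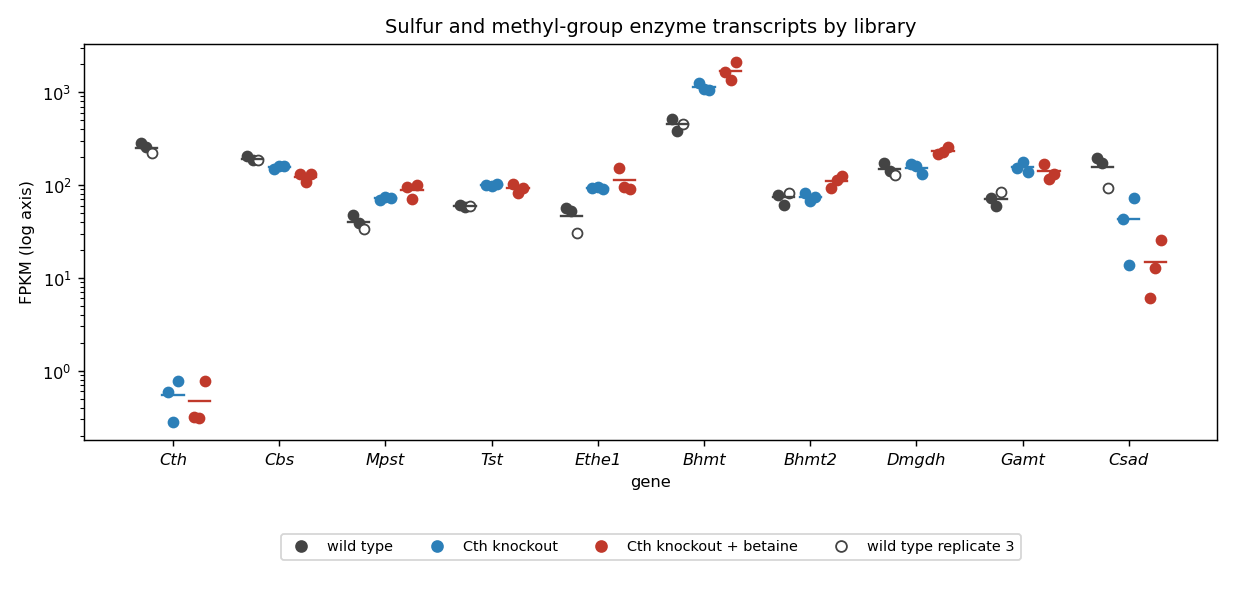
FPKM on a log axis of 10 sulfur and methyl-group enzyme genes, with 1 point per library, horizontal bars at the group means, and wild type replicate 3 as an open circle. Cth falls from above 200 to below 1 FPKM in both knockout groups, Bhmt is highest in the betaine-supplemented livers (1358 to 2116 FPKM) and Csad lowest there (6.12 to 25.4 FPKM).

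Of 18 genes that make or use S-adenosylmethionine, 4 rose and 1 fell, against 6.03% and 5.93% of all tested genes. Without wild type replicate 3 the counts were 3 and 1, and with the 6 libraries of the comparison alone 0 and 0. Gamt, which methylates guanidinoacetate to creatine, went from 72.1, 58.8 and 83.6 to 170.4, 117 and 132 FPKM, a rise of 0.96 ± 0.19 (1.08 without wild type replicate 3). Inmt, an indole and thioether methyltransferase, rose by 1.12 ± 0.24 (1.17) and Srm, spermidine synthase, by 0.91 ± 0.20 (0.76). Tpmt, thiopurine methyltransferase, rose by 0.78 ± 0.19 (0.61), with adjusted p = 0.0322, and 0.0519 without that library. The fall was in Icmt, which methylates prenylated proteins, at -0.55 ± 0.15 (-0.63). Icmt did not pass with the exon length trend removed, with TPM or with each library's own read total. In the phosphatidylcholine list 4 of 16 fell and 0 rose: Etnk1 (-0.93 ± 0.18) and Chka (-0.71 ± 0.20), the kinases that phosphorylate ethanolamine and choline, Cept1 (-0.55 ± 0.11), which joins either head group to diacylglycerol, and Ptdss1 (-0.60 ± 0.15), a phosphatidylserine synthase. The 4 values were, with wild type replicate 3 left out, -1.02, -0.82, -0.53 and -0.61, all past the threshold, while Etnk2 rose by 0.52. Fitted to the 6 libraries of the comparison alone, 0 of this list fell. With the exon length trend described further on removed, 3 fell and the list median moved from -0.11 to 0.01. Chka then gave -0.48 and did not pass (adjusted p = 0.169). In folate metabolism Aldh1l1, which oxidizes formyl-tetrahydrofolate, rose from 247, 163 and 253 to 384, 417 and 398 FPKM, by 0.88 ± 0.18 (0.99). Shmt2 (0.54 ± 0.13) and Amt (0.53 ± 0.15), mitochondrial enzymes of serine and glycine, also rose, and the mitochondrial folate carrier Slc25a32 fell (-1.15 ± 0.27); without wild type replicate 3 they gave 0.52, 0.47 and -0.77, and Amt did not pass (adjusted p = 0.0836). These were 4 of the 16 tested folate genes.

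Glutathione transferases, which conjugate glutathione to reactive compounds, rose in 9 of 20 cases and fell in 0, with a list median of 0.73 against 0.00 over all tested genes. The count was 10 with wild type replicate 3 left out, the median 0.58, and the knockout without betaine gave 10 of 20 and a median of 0.71 against the same wild type livers. Gsta2 measured 16.5, 17.3 and 9.58 FPKM in wild type and 61.7, 34.3 and 38.5 FPKM in the supplemented knockout, and rose by 1.60 ± 0.31. Gstm2 (1.26 ± 0.18), Gstm3 (1.29 ± 0.25), Gstm4 (1.03 ± 0.15) and Gstt2 (1.23 ± 0.21) rose as well, with adjusted p of 0.00704 to 0.0163 for these 4. Without that library the 5 values were 1.34, 1.35, 1.53, 1.06 and 1.161. Gstm genes are near-identical copies, and reads of one can be counted for another, so single members are uncertain. Of 18 targets of NRF2, the factor that induces detoxification and NADPH-forming genes, 4 rose and 0 fell: Gsta2 and Gstm3 again, Pgd, 6-phosphogluconate dehydrogenase (4.18, 3.37 and 5.45 and 9.24, 10.4 and 9.39 FPKM, 1.10 ± 0.17), and Tkt, transketolase (0.67 ± 0.11), the last 2 at 1.26 and 0.64 without that library. Nqo1 and G6pdx passed only without wild type replicate 3, at 1.09 and 0.73, and Gclm then fell at -0.51. Of the 11 genes of glutathione synthesis and turnover 0 passed limma with all libraries (0 at an unadjusted p under 0.05), with a median of 0.03, and Gclm alone passed without that library. The letters TGACNNNGC, the core of the antioxidant response element, were found on either strand in the 250 bases before the start of 3 of 18 glutathione transferase genes with a RefSeq window, Gsta3, Gstm5 and Mgst1. They occurred in 10.1% of all 27025 windows and in 12.2% of those of tested genes. Of the 3 genes with a match, only Mgst1 was past the threshold.

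The series' title names histone lysine methylation, and several transcripts of its enzymes were lower in the supplemented knockout. Of 31 tested histone lysine methyltransferases and their core partners 5 fell and 1 rose, with a median of -0.35; without wild type replicate 3 the counts were 6 and 1 and the median -0.40. In 16 of the 31 every supplemented liver lay below every wild type liver and in 2 above, against 16.4% and 16.2% of all tested genes. Prdm2, a methyltransferase of histone H3 lysine 9, measured 6.02, 7.66 and 5.63 FPKM in wild type and 3.07, 2.7 and 2.89 FPKM in the supplemented knockout. The groups did not overlap, and the knockout livers without betaine, at 6.46, 7.67 and 5.24 FPKM, lay in or near the wild type range. The fall was -1.03 ± 0.16 (adjusted p = 0.0083), -1.11 without wild type replicate 3, and the gene passed in all 9 fits without 1 library. Setd2 (-0.61 ± 0.12), the enzyme that trimethylates lysine 36 in transcribed genes, Ash1l (-0.77 ± 0.15), which methylates the same residue, and the lysine 4 family members Kmt2e (-0.69 ± 0.15) and Kmt2b (-0.58 ± 0.15) fell too. Their values without that library were -0.63, -0.72, -0.64 and -0.62. Unlike Prdm2, Setd2, Ash1l and Kmt2e were below every wild type liver in the knockout without betaine too. They measured 2.64, 2.49 and 2.86, 1.34, 1.71 and 1.79, and 1.98, 2.54 and 2.57 FPKM there. Against wild type that group had 6 of the 31 lower and 0 higher, with a median of -0.20. With wild type replicate 3 left out it had 5 lower, 0 higher and a median of -0.25. Smyd5 rose by 0.61 ± 0.14 (0.69). The genes of the Polycomb methyltransferase for lysine 27, Ezh1, Ezh2, Eed and Suz12, gave 0.27, -0.19, -0.22 and -0.37 (0.36, -0.21, -0.32 and -0.33 without the library) and did not pass. Of 21 demethylases 2 fell and 0 rose, against 5.93% and 6.03% of all tested genes, with a median of -0.21: Riox1, a lysine demethylase and ribosomal oxygenase, from 2.79, 3.07 and 1.89 to 1.09, 1.11 and 1.09 FPKM (-0.93 ± 0.17; -1.10), and Kdm3a (-0.57 ± 0.16, -0.55 without the library), which did not pass without wild type replicate 3 (adjusted p = 0.0817). Most of these transcripts are long, and fold changes varied with exon length as described further on; with that trend removed the methyltransferase list had 3 falls and 1 rise with a median of -0.18 (1 fall, 1 rise and -0.23 with wild type replicate 3 also left out), and Prdm2 stood at -0.90.

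Interferon-stimulated genes, the antiviral and nucleic acid sensing genes that interferons switch on, rose in 14 of 33 tested cases and fell in 0. Their median was 0.76 against 0.00 over all tested genes. Wild type replicate 3 was higher in them than the other wild type livers, with a mean over the list of 0.40 above the wild type mean on the log2 scale against -0.20 in each of the other 2, and without it 19 rose, 0 fell and the median was 0.97. Against the same wild type livers the knockout without betaine had 9 of the 33 higher and 0 lower, with a median of 0.39. With wild type replicate 3 left out it had 10 higher, 0 lower and a median of 0.54. The promoter stretches below are shown because the interferon-stimulated response element, 2 copies of GAAA with any 2 bases between them, searched on both strands, occurred in the 250 bases before the start of 14 of the 25 members with a RefSeq window, against 3.04% of all 27025 windows and 2.7% of those of tested genes. The matches are in capitals, a match on the opposite strand reads as 2 copies of TTTC, adjoining matches overlap, and each line runs 5′ to 3′ on the strand of its gene.
Ifit1, chr19:34640760-34640838, plus strand: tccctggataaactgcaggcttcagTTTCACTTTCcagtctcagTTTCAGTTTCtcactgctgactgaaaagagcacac
Ifit3, chr19:34583348-34583441, plus strand: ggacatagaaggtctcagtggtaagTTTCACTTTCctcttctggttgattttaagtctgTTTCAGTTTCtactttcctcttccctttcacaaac
Isg15, chr4:156200850-156200921, minus strand: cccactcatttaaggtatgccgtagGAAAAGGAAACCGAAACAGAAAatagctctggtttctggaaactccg
Rsad2, chr12:26456538-26456597, minus strand: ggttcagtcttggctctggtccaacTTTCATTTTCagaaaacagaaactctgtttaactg
Irgm1, chr11:48871421-48871475, minus strand: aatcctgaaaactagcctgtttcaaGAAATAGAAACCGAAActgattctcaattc
The sequences and coordinates are those of RefSeq on GRCm38.p6. A match describes the letters only; 8 of the 14 genes with a match were not past the threshold, Stat2, Oas1a, Ddx60, Bst2, Gbp2, Gbp3, Gbp7 and Igtp, and 6 were, Ifit1, Ifit3, Ifit3b, Isg15, Rsad2 and Irgm1.

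Ifit1, which binds viral RNA caps and blocks their translation, measured 2.27, 1.7 and 4.18 FPKM in wild type and 11.6, 11.7 and 11.2 FPKM in the supplemented knockout. The 3 supplemented values were close together and above every other library, the knockout without betaine giving 3.79, 6.13 and 3.54 FPKM. The rise was 1.98 ± 0.27 (adjusted p = 0.00638) and 2.28 without wild type replicate 3. Ifit3, its partner, went from 3.13, 2.59 and 4.59 to 15.9, 14.8 and 12.5 FPKM (1.95 ± 0.19), and Isg15, a ubiquitin-like modifier, from 6.13, 6.49 and 11 to 27.6, 25.4 and 30.9 FPKM (1.81 ± 0.27; 2.15 and 2.06 without it). Oasl1, a member of the oligoadenylate synthase family that holds back Irf7 translation, had the largest rise of the list, from 2.41, 2.18 and 2.71 to 9.76, 13.1 and 17.2 FPKM (2.21 ± 0.19; 2.28 without the library). Its knockout values without betaine were 3.69, 4.03 and 3.94 FPKM, 0.58 against wild type. Among regulators, Irf7 rose by 0.94 ± 0.15 and Usp18, which removes Isg15 from proteins and restrains the receptor, by 1.34 ± 0.23; without wild type replicate 3 the values were 0.93 and 1.58. Irgm1, an immunity-related GTPase, rose by 1.11 ± 0.20, Rsad2 (viperin) by 1.03 ± 0.28 and the RNA sensor Ifih1 by 0.93 ± 0.25 (1.26, 1.36 and 1.12 without it). Rsad2 measured 1.161, 1.4 and 1.55 FPKM in the knockout without betaine, within or just below the wild type range of 1.18 to 3.37 FPKM. Stat2, Irf9 and Ddx58 gave 0.15 ± 0.16, 0.54 ± 0.18 and 0.76 ± 0.27 and did not pass with all libraries (Stat2 at 0.17 without that library); Irf9 and Ddx58 did without wild type replicate 3 (0.71 and 1.07). In the antigen presentation list 2 of 18 rose, the peptide transporter Tap1 (2.28, 2.62 and 3.59 and 4.63, 8.49 and 5.82 FPKM, 1.01 ± 0.21) and the immunoproteasome subunit Psmb9 (1.08 ± 0.26), and 0 fell (1.17 and 1.28 without the library). The chemokine gene Cxcl10 rose by 0.80 ± 0.19 (0.79), 1 of 16 inflammation genes to rise (2 without the library). Over all tested genes 6.03% rose with all libraries. Some of these genes are low: Xaf1, a proapoptotic member of the list (1.20 ± 0.24; 1.45 without it), had 125 reads over the 3 wild type livers and 427 over the 3 supplemented ones.

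Cholesterol synthesis genes rose in 8 of 24 cases and fell in 0, with a median of 0.57; without wild type replicate 3 the count was 9 and the median 0.80, and with TPM in place of FPKM 4 rose. Mvk, mevalonate kinase, measured 3.87, 3.89 and 6.34 FPKM in wild type, 12.2, 13.6 and 17.8 FPKM in the supplemented knockout and 6.28, 4.87 and 8.01 FPKM in the knockout on plain water. The supplemented livers lay above all 6 others, the rise was 1.55 ± 0.23 (adjusted p = 0.00726), and it was 1.77 without the library. Hmgcs1, which makes the precursor of mevalonate, rose from 32.2, 32.3 and 47.1 to 80.3, 83.9 and 106 FPKM (1.28 ± 0.21). Mvd, the decarboxylase further along, rose by 1.84 ± 0.37, Fdft1, squalene synthase, by 1.04 ± 0.21, Dhcr7, which makes cholesterol in the last step, by 1.25 ± 0.32, and Lss and Nsdhl by 1.0 ± 0.25 and 1.20 ± 0.33. These 6 were, without wild type replicate 3, 1.46, 1.99, 1.22, 1.60, 1.28 and 1.47. Msmo1, the sterol methyl oxidase (1.39 ± 0.37, 1.57 without the library), went from adjusted p = 0.0445 to 0.0505 without that library, where Pmvk (1.14) and Sc5d (0.78) passed. The list's median in the knockout without betaine was -0.06, with 3 of 24 higher and 2 lower than wild type; the sign turned without wild type replicate 3, which was high in these genes, to a median of 0.24 with the same counts. The sterol regulatory element TCACNCCAC was found in the 250 bases before 1 of 16 of these genes with a window, Hmgcs1, against 1.04% of all windows.

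Srebf1, the factor that drives fatty acid synthesis genes, rose from 12.6, 18.1 and 22.4 to 47.3, 47.4 and 33.9 FPKM, with 14.9, 16.7 and 17.3 FPKM in the knockout without betaine. The supplemented values exceeded all others, and the rise was 1.28 ± 0.21 (adjusted p = 0.00976; 1.46 without wild type replicate 3). Acss2, which activates acetate, rose by 1.32 ± 0.30, and Elovl2, which lengthens polyunsaturated fatty acids, fell from 161, 186 and 168 to 79.5, 71.9 and 68.2 FPKM (-1.22 ± 0.13; 1.61 and -1.24 without the library). That made 2 higher and 1 lower of 20 tested genes of fatty acid synthesis, against 6.03% and 5.93% of all tested genes. This list turned on wild type replicate 3: Fasn, fatty acid synthase, measured 13.6, 11.8 and 49.3 FPKM in wild type and 33.5, 43.2 and 41.9 FPKM in the supplemented knockout, and Thrsp, a regulator of lipogenesis, 16.7, 9.2 and 137 and 229.8, 187 and 225 FPKM. In both genes replicate 3 lay far above the other wild type livers. Fasn gave 0.96 ± 0.46 (adjusted p = 0.2) with it and 1.59 (adjusted p = 0.00319) without it, and Thrsp 2.91 ± 0.85 and 4.04 (adjusted p = 0.0633 and 0.00125). Acacb, Elovl6 and Pklr likewise passed only without it (1.20, 0.87 and 0.77), so that 7 of the 20 rose and 1 fell.

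Among PPAR-alpha targets and genes that oxidize fatty acids, 37 in all, 8 fell and 1 rose, against 5.93% and 6.03% of all tested genes. Without wild type replicate 3 the counts were 7 and 0, and with the 6 libraries of the comparison alone 3 and 0. With TPM or with each library's own read total 4 rose. Cpt1a, the enzyme that admits fatty acids to mitochondria, measured 99, 80.7 and 79 FPKM in wild type and 40.4, 41.1 and 36 FPKM in the supplemented knockout. All 3 supplemented livers were below all wild type ones, and the knockout without betaine was similarly low at 43.6, 46.1 and 47.2 FPKM. The fall was -1.12 ± 0.13 (adjusted p = 0.00362; -1.18 without the library). Ppara itself fell from 28.4, 19.9 and 29.6 to 6.05, 14 and 8.45 FPKM (-1.46 ± 0.29), its partner Rxra at -0.60 ± 0.16, and the acyl-CoA thioesterase genes Acot1, Acot3 and Acot4, which are near-identical copies in part, at -1.23 ± 0.28, -2.22 ± 0.53 and -1.21 ± 0.24. These 5 gave, without wild type replicate 3, -1.36, -0.64, -1.19, -1.65 and -1.05. Ppara was also low in the knockout without betaine, at 3.78, 5.22 and 6.07 FPKM (-2.26 against wild type, -2.16 without that library). Eci1, an isomerase of unsaturated fatty acid oxidation, was the 1 gene to rise (0.64 ± 0.17, 0.46 without the library) and did not pass without the library (adjusted p = 0.0656). The fasting genes Angptl4 and Fgf21 are described below with the calls that missed the threshold without wild type replicate 3. Lpin2, a phosphatidate phosphatase, fell from 31.4, 19.8 and 45.1 to 11.2, 9.39 and 8.91 FPKM (-1.59 ± 0.25; -1.31), Agpat2, an acyltransferase of glycerolipid synthesis, rose (0.62 ± 0.14; 0.56), and Cd36, the fatty acid translocase, rose from 5.39, 4.79 and 10.04 to 36.5, 29.4 and 24.6 FPKM (2.13 ± 0.29; 2.44 without the library). The 3 supplemented livers held the highest Cd36 values, and the knockout on plain water gave 11.2, 14.8 and 19.5 FPKM.

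**Figure D3:**
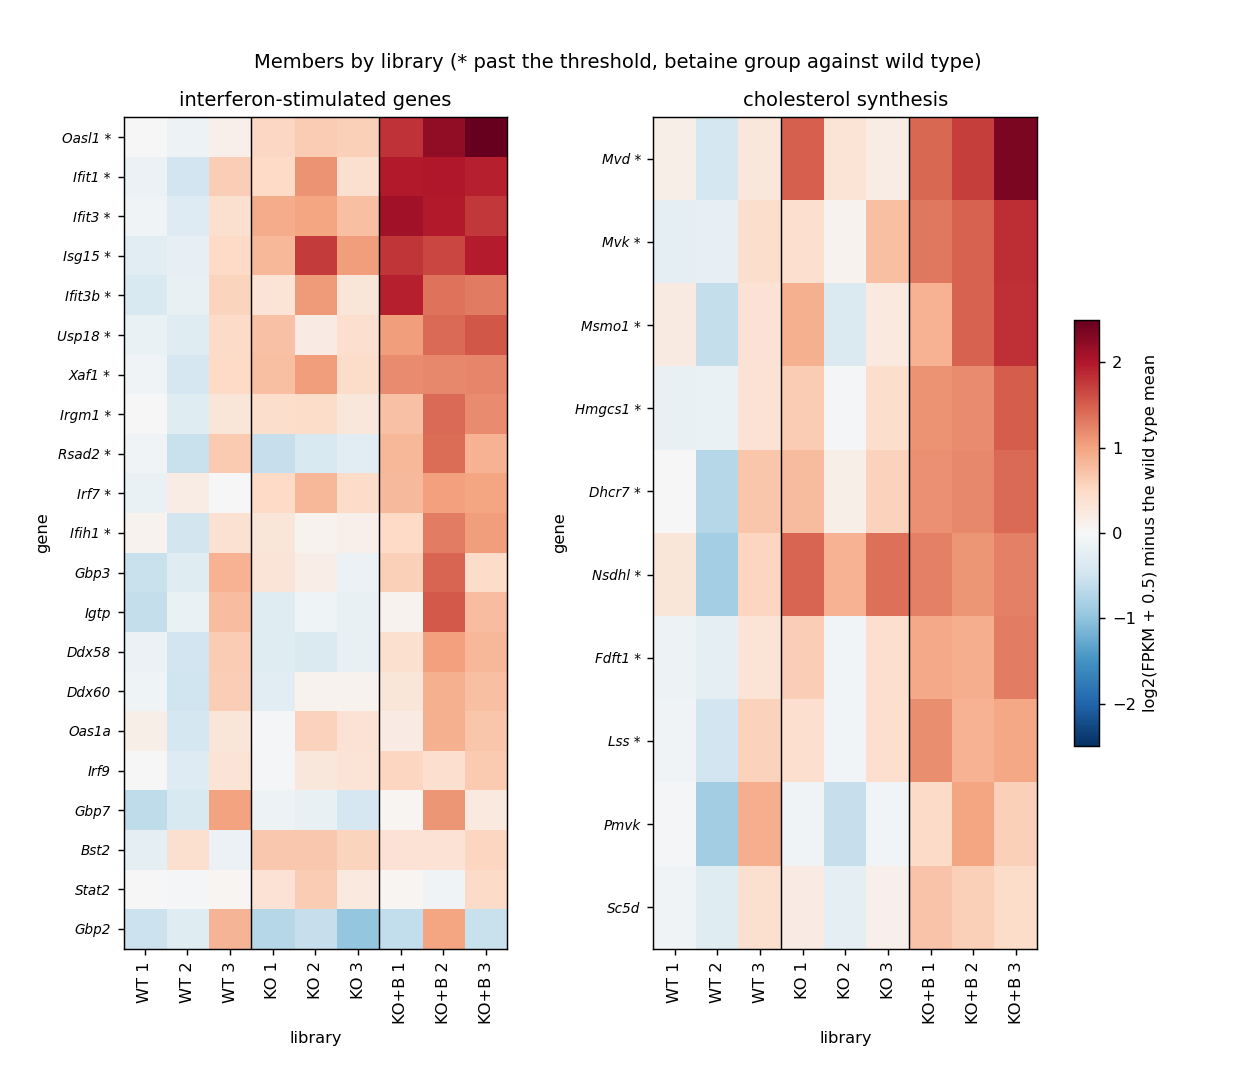
Heat map of the interferon-stimulated (left, 21 of 33 tested genes) and cholesterol synthesis genes (right, 10 of 24) named in the text, by library (WT wild type, KO Cth knockout, KO+B knockout with betaine), as log2(FPKM + 0.5) minus the wild type mean, ordered by fold change, with asterisks at the 11 and 8 of them past the threshold. The top genes of both lists are red in all 3 KO+B columns, and WT 3 is redder than WT 1 and WT 2 in many rows.

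Of 30 genes of hepatocyte identity, factors and products, 2 passed, both lower, against 5.93% of all tested genes. Without wild type replicate 3 it was 3, against 6.6% of all tested genes. Hnf4a, the nuclear receptor that maintains hepatocyte gene expression, measured 165, 147 and 211 FPKM in wild type and 81.7, 96.5 and 85.8 FPKM in the supplemented knockout. The ranges were separate, with 107, 112 and 109 FPKM in the knockout without betaine, and the fall was -0.97 ± 0.15 (adjusted p = 0.0083; -0.82 without wild type replicate 3). Foxa3, a forkhead factor of the same network, fell from 40.7, 46.2 and 29.3 to 11.8, 14 and 17.6 FPKM (-1.38 ± 0.20; -1.57). The hepatocyte products Alb, Apoa1, Ttr, Cps1 and Cyp3a11 did not pass, and their summed level was 43797 to 61839 FPKM in wild type and 29550 to 41829 FPKM in the supplemented livers, where all 3 values were below the wild type ones.

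Of 15 pericentral genes 3 rose and 2 fell, against 6.03% and 5.93% of all tested genes (3 and 3 without wild type replicate 3): Rhbg, an ammonium transporter (1.23 ± 0.21), Cyp1a2 (322, 311 and 241 and 612, 493 and 523 FPKM, 0.90 ± 0.16) and Lect2 (0.76 ± 0.21) rose, and the glutamate transporter Slc1a2 (14.6, 16.9 and 13.7 and 6.6, 7.18 and 5.84 FPKM, -1.14 ± 0.13) and Cyp27a1, the sterol 27-hydroxylase (-0.50 ± 0.13), fell. Without wild type replicate 3 they were 1.13, 0.77, 0.93, -1.21 and -0.49, all past the threshold. Periportal genes fell in 2 of 15 cases with that library, Pck1 and Ctsc (-0.87 ± 0.24; -0.58 without it), and in 0 without it. Of 31 xenobiotic cytochrome P450 genes 2 rose, Cyp1a2 and Cyp2a5 (1.38 ± 0.26), and 2 fell, Cyp2c29 (369.7, 328 and 532 and 158, 199 and 145 FPKM, -1.27 ± 0.25) and Cyp3a13 (-0.79 ± 0.18); without the library 5 rose and 3 fell, and the 4 gave 0.77, 1.38, -1.07 and -0.61. The P450 counts with all libraries were close to the shares of all tested genes. Bile acid genes fell in 2 of 20 cases, against 5.93% of all tested genes (without wild type replicate 3, 2 fell and 1 rose). The 2 were Fgfr4, the receptor that represses bile acid synthesis (-0.62 ± 0.13, and -0.67 without the library), and again Cyp27a1. Insr, the insulin receptor, fell from 11.6, 10.5 and 11.1 to 6.82, 7.84 and 6.37 FPKM (-0.63 ± 0.11), Foxo1, the factor it restrains, at -1.37 ± 0.33 (-0.62 and -0.89 without the library); with Pck1 these were 3 lower and 0 higher of 23 genes of glucose metabolism (3 lower and 3 higher without it). In amino acid catabolism Gpt, alanine aminotransferase, rose from 81.7, 85.5 and 81.8 to 132, 124 and 137 FPKM (0.65 ± 0.12; 87.1, 88.5 and 101 FPKM in the knockout on plain water), Prodh, proline dehydrogenase, rose by 0.50 ± 0.14, and Tdo2, tryptophan dioxygenase, fell at -0.88 ± 0.23. Without wild type replicate 3 Gpt and Prodh gave 0.64 and 0.61, and Tdo2 -0.69 with adjusted p = 0.0715.

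Of 25 acute phase genes 3 were higher and 4 lower, against 6.03% and 5.93% of all tested genes. Without wild type replicate 3 the counts were 4 and 3, and with the 6 libraries of the comparison alone 1 and 0. Orm2, an orosomucoid, rose from 12.5, 14.4 and 19.1 to 44, 53.8 and 76.9 FPKM (1.87 ± 0.23; 2.04 without wild type replicate 3), Orm1 by 0.76 ± 0.18 (0.79), and Saa1 is described below with the genes that missed the threshold without that library. Complement C3 (-0.67 ± 0.16), C-reactive protein Crp (-0.66 ± 0.15), ceruloplasmin Cp (-0.54 ± 0.12) and the lipopolysaccharide-binding protein Lbp (-0.96 ± 0.27) fell; without the library they gave -0.51, -0.56, -0.48 and -0.74, and Lbp did not pass (adjusted p = 0.0912). Stat3, the factor through which interleukin-6 signals, fell from 14.4, 12.6 and 15.8 to 8.93, 9.98 and 10.2 FPKM (-0.53 ± 0.12; -0.45).

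Of 22 genes of endoplasmic reticulum stress 1 rose and 3 fell (1 and 4 without wild type replicate 3), and of 18 genes of the amino acid response 0 rose and 2 fell (0 and 1). Herpud1, which helps to clear misfolded proteins from the endoplasmic reticulum, fell from 314, 257 and 339 to 82.2, 59.2 and 91.1 FPKM (-1.98 ± 0.18; -1.89 without wild type replicate 3), with 112, 116 and 129 FPKM in the knockout on plain water. The 3 groups kept that order without overlap. Dnajc3 (-0.80 ± 0.16) and Atf6 (-0.80 ± 0.18), a chaperone and a sensor of the same stress response, fell, and Sec61b, a subunit of the translocation channel, rose (0.84 ± 0.18); these 3 gave -0.73, -0.78 and 0.67 without the library. Sesn2, which the amino acid response factor ATF4 induces, fell at -0.90 ± 0.21 and did not pass without that library (-0.79, adjusted p = 0.0503). Bbc3, the p53 target PUMA that promotes apoptosis, rose from 3.47, 3.79 and 3.67 to 13.9, 11.1 and 9.26 FPKM (1.51 ± 0.17, adjusted p = 0.00362; 1.51 without the library). The knockout without betaine gave 4.98, 3.42 and 3.67 FPKM, at or near the wild type values. Perp, another p53 target, fell at -0.61 ± 0.14 (-0.56). Of the 20 genes of that list 1 rose and 2 fell, with and without wild type replicate 3. Over all tested genes 6.03% rose and 5.93% fell with all libraries.

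Of 17 clock genes 5 fell and 2 rose, against 5.93% and 6.03% of all tested genes, with a median of -0.53 (-0.49 without wild type replicate 3). With the 6 libraries of the comparison alone 1 fell and 0 rose. With the exon length trend described further on removed 4 fell and 2 rose, and 2 and 2 with wild type replicate 3 also left out. Per1 fell from 2.55, 1.92 and 7.43 to 0.179, 0.134 and 1.22 FPKM (-2.10 ± 0.50; -1.59), Nfil3, a repressor of the output genes, from 62.5, 45.8 and 41.9 to 27.2, 24.7 and 26.9 FPKM (-0.90 ± 0.16; -1.01), and Nr1d2 (-1.161 ± 0.25), Rora (-0.81 ± 0.17) and Tef (-0.65 ± 0.16) also fell. Npas2 (1.03 ± 0.25) rose. Without that library these 4 gave -1.20, -0.67, -0.72 and 1.297, all past the threshold. The knockout without betaine had 4 of the 17 clock genes lower and 0 higher than wild type, with a median of -0.55. With wild type replicate 3 left out it had 3 lower, 1 higher and a median of -0.50. The time of day at which livers were taken is not given in the sources used here. Of the 15 immediate-early genes 0 passed limma (1 at an unadjusted p under 0.05); Fosl2 (-0.52 ± 0.20; -0.39 without the library) and Myc (0.78 ± 0.39; 0.86) had the smallest p-values. Neat1, the long RNA around which nuclear paraspeckles form, measured 1.74, 1.9 and 1.67 FPKM in wild type and 11.1, 7.78 and 10.5 FPKM in the supplemented knockout. All supplemented livers lay at or above 7.78 FPKM and all wild type ones below 2, with 4.74, 7.53 and 7.21 FPKM in the knockout on plain water. The rise was 2.17 ± 0.19 (adjusted p = 0.00164), 2.14 without wild type replicate 3. Among paraspeckle proteins Pspc1 (0.82 ± 0.16) rose and Sfpq (-0.56 ± 0.15) fell (0.83 and -0.65 without the library), while Malat1 gave 0.74 ± 0.32 (0.66) and did not pass.

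**Figure D4:**
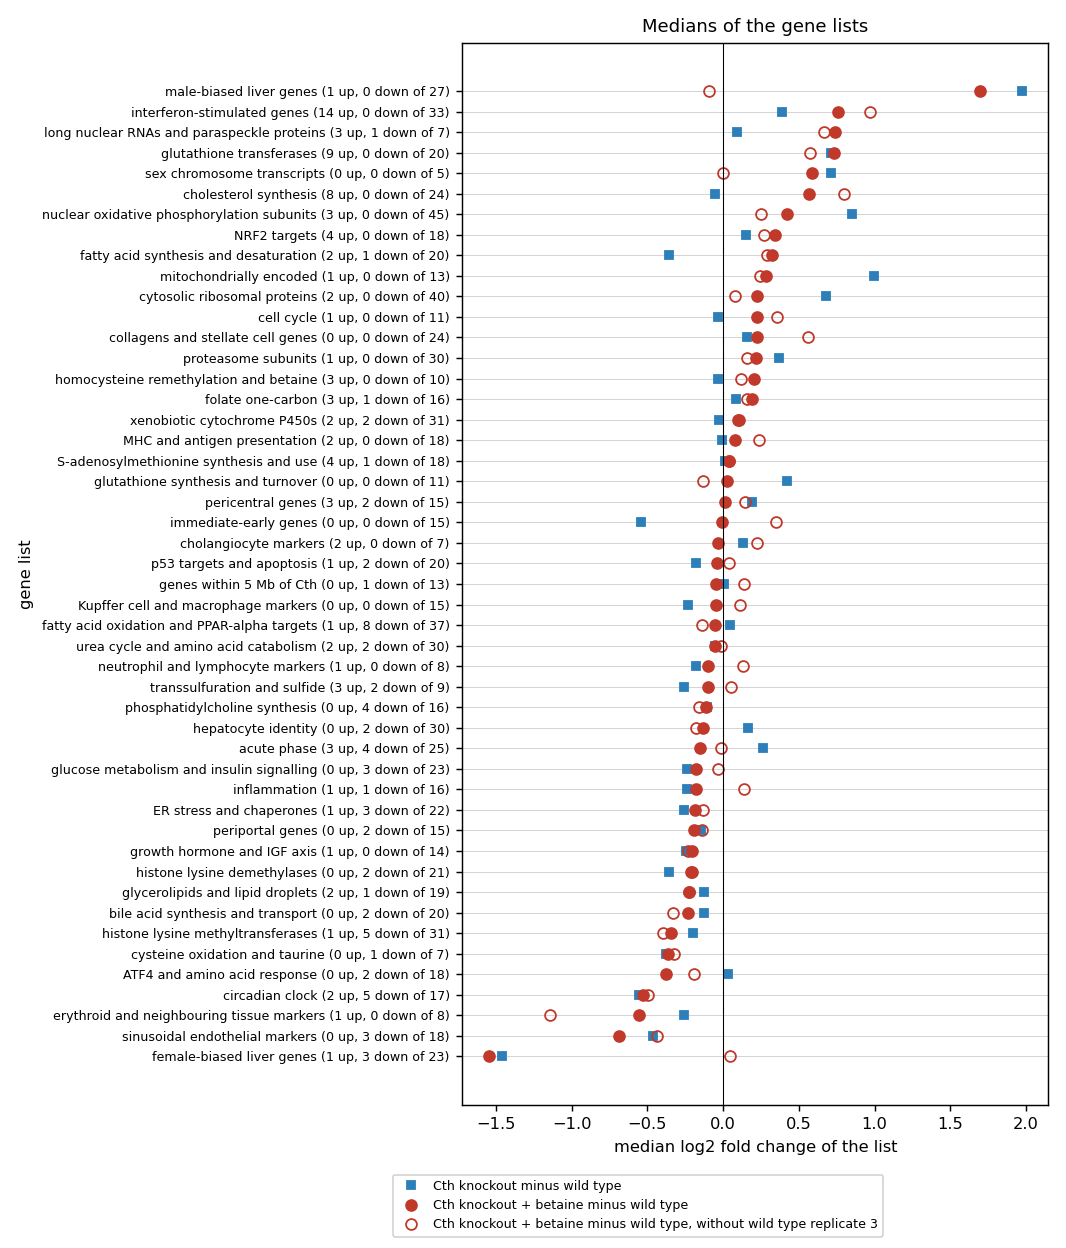
Median log2 fold change of each gene list, with the counts of members past the threshold in the betaine-supplemented knockout against wild type beside its name. Filled circles are that comparison over all libraries, open circles without wild type replicate 3 and squares the knockout without betaine against the same wild type libraries; the male-biased list moves from 1.70 to -0.09 and the female-biased list from -1.55 to 0.04 when the library is left out.

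Of the 47 gene lists, the sex-biased ones had the medians that moved most when wild type replicate 3 was left out. Male-biased liver genes had a median of 1.70 with it and -0.09 without it, and female-biased genes -1.55 and 0.04. Elovl3, a male-biased elongase, measured 558, 408 and 5.4 FPKM in wild type and 333, 439.8 and 611 FPKM in the supplemented knockout. Replicate 3 alone was low, and the log2 fold change was 2.02 with it and -0.09 without it, neither past the threshold. Mup16, a major urinary protein gene, was the only member of 27 to rise with all libraries (137, 105 and 93.1 and 334, 787 and 330.3 FPKM, 2.0 ± 0.34; 1.88 without the library). Without wild type replicate 3 the male-biased list had 3 higher and 1 lower; of 23 female-biased genes 1 rose and 3 fell with it, and 2 and 3 without it. Some betaine-supplemented livers also differed in these genes. The first had 1474.5 FPKM of Mup7 against 9200.3 and 11401 FPKM in the other 2, and Cyp2b9, listed at 0 in wild type replicates 1 and 2, measured 37.3, 7.97 and 1.46 FPKM in the 3 supplemented livers. Of the growth hormone axis, which sets sex-biased expression in liver, Socs2, its feedback inhibitor, measured 6.53, 9.58 and 2.19 FPKM in wild type, 0.679, 0.47 and 1.03 FPKM in the supplemented knockout and 5.51, 6.63 and 1.08 FPKM in the knockout on plain water. The supplemented livers were all below the wild type ones; Socs2 gave -2.25 ± 0.64 (adjusted p = 0.0558) with all libraries and passed without wild type replicate 3 (-2.80, adjusted p = 0.028).

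The largest changes among genes called with all libraries that missed the threshold without wild type replicate 3 included genes of fasting and of the acute phase. Saa1, serum amyloid A, measured 15.9, 21.7 and 12.7 and 74, 85.4 and 416 FPKM (3.04 ± 0.81; 2.86, adjusted p = 0.0851). The highest supplemented liver was several times the other pair. Pck1, the first committed enzyme of gluconeogenesis, measured 1319.9, 568 and 1516 and 301, 104 and 449.9 FPKM (-2.11 ± 0.53; -1.84, adjusted p = 0.0862), and Angptl4, an inhibitor of lipoprotein lipase, 104, 56.6 and 74.1 and 40.8, 6.52 and 21.9 FPKM (-2.03 ± 0.55; -2.05). Fgf21, a fasting hormone, measured 2.14, 2.34 and 1.98 and 0.375, 0.114 and 0.72 FPKM (-1.61 ± 0.40; -1.66), with 1.17, 4.82 and 3.53 FPKM in the knockout without betaine. For Angptl4 and Fgf21 the fold change was as large without the library, and the adjusted p rose to 0.0836 and 0.0587. The 4 others were Ces2b (1.62 without the library), Hist1h1e (1.64), Msmo1 and Mylip (-0.89). Each gene of this group passed in only 1 to 3 of the 9 fits that leave out 1 library, so these calls did not rest on wild type replicate 3 alone.

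Beyond the groups above, the largest rises past the threshold with and without wild type replicate 3 included Sult2a7, a sulfotransferase gene, at 4.11 ± 0.99 (4.47 without it), from 0.397, 0.614 and 1.6 to 126, 5.36 and 14.1 FPKM. The first supplemented liver stood far above the other 2, and the gene has near-identical copies. Cenpm, a centromere protein gene, rose from 0.236, 0 and 0.342 to 3.19, 3.91 and 3.12 FPKM (2.52 ± 0.22, 2.68 without the library; 16 and 285 reads), and passed in all 9 fits without 1 library. Lad1, an anchoring filament protein gene, rose by 2.19 ± 0.34 (1.89 without that library), the replication-dependent histone gene Hist1h4h by 2.03 ± 0.45 (1.44), and Tsc22d1, a leucine zipper regulator, from 5.29, 5.38 and 3.79 to 17.8, 23.4 and 20.7 FPKM (2.0 ± 0.17; 1.85 without the library). Hist1h4h had 93 reads over the 3 wild type livers and was lowest in wild type replicate 3 (6.21, 5.01 and 1.29 FPKM in wild type). Snord49a, a small nucleolar RNA, had 1 read in wild type and 10 in the supplemented knockout, too few to size its change. The largest falls after Cth and Csad included Enho, which encodes the secreted peptide adropin, from 41.7, 47.4 and 28.8 to 4.96, 8.63 and 12.2 FPKM (-2.18 ± 0.33; -2.39). The groups did not overlap, and the knockout without betaine gave 14.6, 8.77 and 15.3 FPKM. Acnat2, an acyl-CoA N-acyltransferase gene, fell at -3.01 ± 0.54, Gadd45b, a stress sensor, at -2.48 ± 0.43, Zbtb16, a zinc finger repressor, at -2.20 ± 0.52, St3gal5, which makes the ganglioside GM3, at -2.02 ± 0.54, and Slc10a2, a bile acid transporter, at -2.02 ± 0.42. In each of these 5 wild type replicate 3 was the highest library, and without it the values were -2.27, -1.93, -1.66, -1.27 and -1.45. Wfdc2, a secreted protease inhibitor, fell at -1.81 ± 0.25 and Fmo2, a flavin monooxygenase, at -1.78 ± 0.48 (-1.82 and -1.14). Some of these calls were fragile. St3gal5 and Fmo2 passed in only 2 of the 9 fits that leave out 1 library, Sult2a7 in 3 and Zbtb16 in 4. In the limma fit to the 6 libraries of the comparison alone, St3gal5, Fmo2 and Sult2a7 had adjusted p of 0.111, 0.109 and 0.11.

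Counts of mitochondrial and ribosomal genes depended on the scaling. Nuclear genes of oxidative phosphorylation had a median of 0.42 with 3 of 45 higher and 0 lower (0.25 and 1 of 45 without wild type replicate 3). With TPM 13 of the 45 were higher and with each library's own read total 18, and in 21 every supplemented liver lay above every wild type liver, against 16.2% of all tested genes. Ndufb3, a subunit of complex I, measured 36.1, 41.1 and 26.2 FPKM in wild type and 89.2, 50.01 and 85.8 FPKM in the supplemented knockout, and rose by 1.09 ± 0.24 (0.91). Against the same wild type livers the knockout without betaine had 34 of 45 higher and a median of 0.85 (25 and 0.62 without wild type replicate 3). Cytosolic ribosomal protein genes had a median of 0.23 with 2 of 40 higher, Rpl3 (48.8, 50.5 and 54.5 and 85.7, 82.3 and 86.4 FPKM, 0.72 ± 0.13; 0.77) and Rpsa (0.61 ± 0.17; 0.49, adjusted p = 0.0814), where the knockout without betaine had 27 of 40 and 0.68 (19 and 0.55 without wild type replicate 3); the supplemented knockout had 3 of 40 with TPM and 4 with own read totals. Of the 13 mitochondrially encoded genes 1 rose, mt-Co3 (43.6, 81.1 and 104 and 258, 192 and 357 FPKM, 1.85 ± 0.36; 2.12); mt-Nd1 gave 0.30 ± 0.19 (0.30) and did not pass. These lists hold short transcripts, and fold changes went with exon length across genes.

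Over 11753 genes with a known exon length, Spearman's rho between exon length and log2 fold change was -0.305, and -0.248 without wild type replicate 3. These genes share the same libraries and are not independent. Split in 3 by length, the shortest genes, up to 2722 bases, held 364 that rose and 72 that fell, with a median of 0.17; among the longest, from 5294 bases, 95 rose and 425 fell, with a median of -0.16. The knockout without betaine had rho = -0.436 against the same wild type libraries. With the trend removed 1189 of 11753 genes passed (10.1%), 625 higher (5.32%) and 564 lower (4.8%). Medians under that setting were 0.31 for oxidative phosphorylation, 0.07 for ribosomal proteins, 0.54 for glutathione transferases, 0.76 for interferon-stimulated genes and 0.52 for cholesterol synthesis. The part of RNA quality in these gene groups was not tested.

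**Figure D5:**
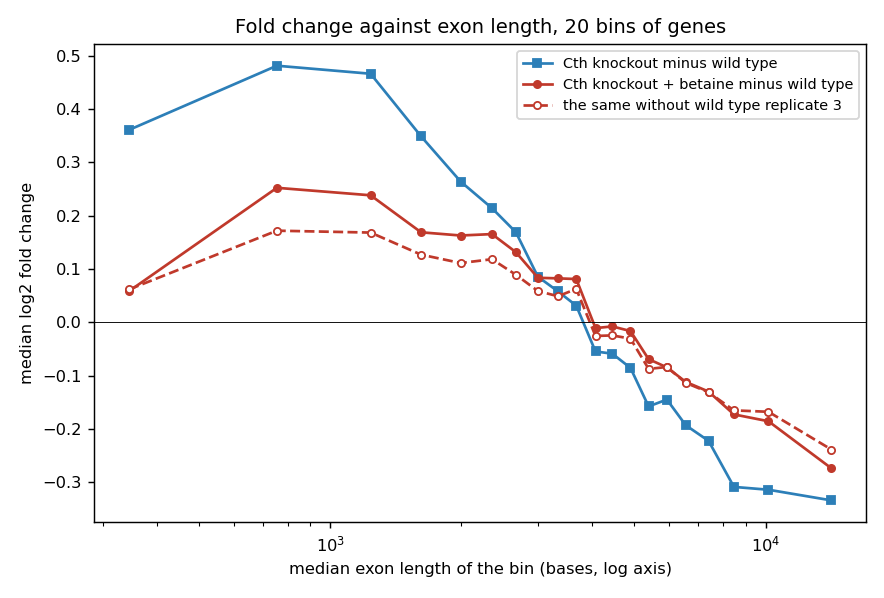
Median log2 fold change in 20 bins of genes ordered by exon length (bases, log axis), for the betaine-supplemented knockout against wild type (filled circles), the same without wild type replicate 3 (open circles, dashed) and the knockout without betaine against wild type (squares). All 3 lines fall from positive values at short genes to negative values at long genes, most steeply in the knockout without betaine.

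Markers of other liver cell types were checked because whole liver was sequenced. Sinusoidal endothelial genes fell in 3 of 18 cases with all libraries, Fcgr2b (-0.93 ± 0.23), Clec4g (-0.55 ± 0.15) and Flt4 (-0.94 ± 0.27), and in 0 without wild type replicate 3 (-0.76, -0.48 and -0.66), with a median of -0.69 and -0.44. The summed level of the 5 endothelial markers Stab2, Lyve1, Clec4g, Pecam1 and Kdr was 24.6 to 42.2 FPKM in wild type and 15.3 to 24.3 FPKM in the supplemented livers; fewer cells of a type and less RNA per cell cannot be told apart in whole liver. Ighm, the heavy chain of immunoglobulin M, rose from 2.22, 2.88 and 5.39 to 13.1, 13 and 8.02 FPKM (1.62 ± 0.31; 1.94), while the B cell marker Cd79a gave -0.48 ± 0.24 (-0.63) and did not pass. Krt8 and Krt18, keratins of bile duct cells and of hepatocytes, rose from 84.2, 86.1 and 86.5 to 235, 159 and 192 FPKM and from 66.8, 63.9 and 72 to 222, 157 and 194 FPKM (1.17 ± 0.16 and 1.48 ± 0.16; 1.18 and 1.52 without wild type replicate 3), and were similarly high in the knockout without betaine (167, 203 and 182 and 158, 201 and 164 FPKM). Summed markers of the 2 groups overlapped for bile duct, stellate, Kupffer, neutrophil, T and NK, erythroid and adipose cells. Kupffer cell and macrophage genes passed in 0 of 15 cases in limma, and 0 of 24 collagen and stellate cell genes passed with all libraries (before adjustment, 0 and 4 had p under 0.05). Without wild type replicate 3, which was high in several of them, Col3a1 (1.83, 1.68 and 3.86 and 5.02, 6.96 and 3.02 FPKM; 1.22), Col4a2 (0.63) and Des (0.80) rose. Of the 4 pancreatic markers Prss1, Cpa1 and Amy2a5 were at 0 in all 6 libraries, and Cela1 rose by 0.79 ± 0.17 (0.74). The part of cell composition in the gene groups above was not tested.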

How the data were processed

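Poly-A RNA of mouse liver was sequenced after NEBNext Ultra library preparation, per the labels' protocols, and a strand setting is not given there. The submitters' processing notes name the build mm10 and list DESeq2 1.16.1, HISAT2 2.0.5 and featureCounts 1.5.0-p3 without giving each a role. The authors deposited FPKM values for 54532 genes, 29112 of them at 0 in all 9 libraries, and symbols were matched for 54409 by GENCODE M21 (GRCm38). With exon lengths from that annotation 98.3% to 98.6% of low values (up to 20 reads) came within 0.05 of a whole read, and the library denominators followed median-of-ratios size factors, not the libraries' own totals. Depths and the level of 3 reads cover counting error only.

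Genes averaging 0.5 FPKM or more in the 6 libraries were kept, as log2(FPKM + 0.5). All 9 libraries entered 1 limma fit (version 3.58.1 in R 4.3.3), by lmFit and a robust eBayes with an intensity trend and no covariate, with two-sided p-values adjusted by Benjamini-Hochberg over 11763 genes and a threshold of 0.05; the pipeline was tested on simulated data. The fit without wild type replicate 3 used the other 8 libraries and the same genes. Gene lists are described by counts and medians, with no set test. Exon length trends were removed by loess with span 0.5. Tables, promoter searches and figures used matplotlib 3.10.9, pandas 2.3.3 and numpy 2.4.6 in Python 3.11.15.

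The comparison, the 47 gene lists and the tests were chosen with earlier results of these data known. The rule for named genes gave 149: Cth; the 12 largest rises and 12 largest falls past the threshold with and without wild type replicate 3, not overlapping, with at least 1 FPKM in either group and no predicted gene, Riken clone or pseudogene; the 4 largest of each direction that passed only with that library; and up to 4 members a list past the threshold, or the 2 with the smallest p. Other list members and the genes of the closing section were named after their values were seen. Values of some of these genes are not reported here. Same-numbered wild type and betaine-supplemented libraries did not deviate together (correlations of -0.095, -0.117 and -0.127), so the numbers were not used as a block in the reported fit.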

Additional observations from a re-analysis of the deposited data

How the results depend on the processing

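Against 1407 genes (709 higher, 698 lower), the count was 360 (210 and 150) with the 6 libraries of the comparison alone, 594 (315 and 279) with no filter on low values, where 23885 genes were tested, and 681 (368 and 313) with the replicate number as a block. Scaling by each library's own read total gave 1530 with 1064 higher, against 466 lower. Leaving out 1 library gave 388 to 1454 genes (204 to 750 higher, 184 to 776 lower), the lowest without betaine-supplemented replicate 3, which kept 375 of the 1407; without wild type replicates 1 and 2 it was 592 and 656, and without betaine-supplemented replicate 1 it was 670. Without knockout replicates 1, 2 and 3, which bear only on the spread, it was 958, 870 and 925. Without wild type replicate 3, and with only the other 5 libraries of the comparison, 523 genes passed (275 higher, 248 lower) against 1454. Other pseudocounts, a filter at 1 FPKM, TPM, quantile normalization, removal of the exon length trend and moderation with no intensity trend and no robust step gave 1085 to 1588. Of the 149 named genes 0 changed direction under any of these settings. The rule had picked them for large changes or small p-values, so a change of direction was unlikely from the start. With the filter at 1 FPKM only 145 of them were tested. Elovl3, which the rule did not name, did change sign without wild type replicate 3. The settings under which most of the 149 dropped below the threshold were betaine-supplemented replicate 3 left out (77), the 6 libraries alone (76), the 5 libraries of the comparison without wild type replicate 3 (67) and no filter (59); with the block it was 46, and without wild type replicate 3 it was 22, while 4 more passed. Cth stayed past the threshold in all of them. Genes under about 1 FPKM rest on few reads, and 3 libraries a group limit what a change of less than about 0.5 on the log2 scale can show.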

Other observations

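Outside the gene lists, some genes passed in each of the 9 fits with 1 library left out. Those named here were picked after their values were seen, and no explanation is offered. Mtln, which encodes a micropeptide of mitochondrial lipid oxidation, measured 6.03, 6.95 and 6.08 FPKM in wild type and 23.8, 17.6 and 22.5 FPKM in the betaine-supplemented knockout (1.66 ± 0.16; 1.63 without wild type replicate 3), and 19.7, 23.9 and 17.5 FPKM in the knockout on plain water. Hsd17b2, which inactivates estradiol and testosterone, rose from 65.5, 52.1 and 63.6 to 181, 154 and 199 FPKM (1.55 ± 0.16; 1.59 without that library), and the aldehyde dehydrogenase gene Aldh1a7 from 73.5, 49.4 and 49.9 to 162, 163 and 214 FPKM (1.64 ± 0.20; 1.55). In these 3 genes both knockout groups lay above wild type without overlap.

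In the next 3 genes, 2 of them of sphingolipid metabolism, the supplemented livers stood above all 6 others. Smpd3, a neutral sphingomyelinase, measured 0.146, 0.138 and 0.211 FPKM in wild type, 2.48, 1.45 and 2.15 FPKM with betaine and 0.566, 0.579 and 0.282 FPKM in the knockout on plain water (1.91 ± 0.21 against wild type; 1.96 without wild type replicate 3). Spns2, a transporter of sphingosine-1-phosphate, measured 2.64, 1.65 and 3.66, 9.97, 11.2 and 10.6 and 4.98, 4.49 and 4.97 FPKM in the same order (1.86 ± 0.21; 2.09). Grk5, a kinase of G protein-coupled receptors, measured 2.61, 1.84 and 1.71, 5.83, 9.31 and 9.6 and 3.32, 3.41 and 3.59 FPKM (1.76 ± 0.20; 1.67). None of the 3 passed limma in the comparison of the knockout groups with each other, where 0 of 11763 genes did (2624 at an unadjusted p under 0.05).

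Among falls, Rapgef4, a cyclic AMP-regulated exchange factor, measured 25.8, 22 and 42.6 FPKM in wild type, 9.61, 6.24 and 11.8 FPKM with betaine and 22.7, 22.2 and 23 FPKM in the knockout on plain water (-1.64 ± 0.27; -1.37 without wild type replicate 3). Slc22a5, the carnitine transporter, fell from 10.5, 12.6 and 11.8 to 4.25, 4.15 and 4.68 FPKM (-1.32 ± 0.16; -1.305), Ulk1, a kinase that starts autophagy, from 13.7, 12.5 and 20.1 to 5.45, 5.57 and 4.14 FPKM (-1.50 ± 0.19; -1.298), and Klb, the coreceptor for Fgf21, from 11.8, 8.64 and 7.56 to 3.2, 5.01 and 3.35 FPKM (-1.17 ± 0.20; -1.31). Slc3a1, a subunit of the cystine transporter, fell from 17.9, 13.2 and 27.5 to 3.11, 6.78 and 6.23 FPKM (-1.77 ± 0.35; -1.50 without wild type replicate 3), with 4.68, 2.72 and 5.06 FPKM in the knockout on plain water.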
